A study of Homo sapiens with 2 samples.

Results

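Messenger RNA levels of 10 genes that govern entry into the cell cycle, namely the D cyclins CCND1, CCND2 and CCND3, the G cyclins CCNG1 and CCNG2, the pocket proteins RBL1 and RBL2, and the CDK inhibitors CDKN1B, CDKN2B and CDKN2C, were examined in HCT-116 cells treated with lysophosphatidic acid (LPA) and in untreated cells. The genes were taken by symbol from the 26260 gene symbols of an isoform table, and they held 19 of its 63236 isoforms. HCT-116 is an established human epithelial line from a colorectal carcinoma, and LPA is a growth-promoting phospholipid found in serum. The LPA library came from cells that had been starved of serum and then given LPA at 10 µM for 24 h. The control library came from cells without LPA, and the labels do not say whether these were starved too. The data hold 1 library per condition and both titles carry the number 3, so every difference below is between these 2 libraries, has no replicate check and has no p-value.

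D cyclins bind the kinases CDK4 and CDK6, which phosphorylate RB1 and its relatives RBL1 (p107) and RBL2 (p130) and so release E2F factors that switch on genes of DNA replication. The inhibitors of the INK4 class, CDKN2B (p15) and CDKN2C (p18), bind CDK4 and CDK6, whereas CDKN1B (p27) also holds cyclin E and cyclin A complexes of CDK2 inactive. G cyclins are atypical: CCNG1 is induced by DNA damage, and CCNG2 is high in cells that leave the cycle and is a target of FOXO factors. In colorectal cells CCND1 is widely studied as a mitogen-responsive cyclin.

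Levels are given as FPKM, the estimated number of fragments of a transcript scaled to its length and to the size of the library, summed over the isoforms of a gene. The libraries held about 15800000 (LPA) and 16700000 (control) fragments, estimated from the FPKM values themselves. Of the colon epithelial markers, 7 of 10 were measured, 6 of them higher and 1 lower in the LPA library, whereas CDX1 and VIL1 were listed at 0 in both. EPCAM had 223 FPKM in the LPA library and 220 FPKM in the control library. The keratin gene KRT18, the 1 marker of the list past 1.5-fold, had 741 FPKM in the LPA library and 442 FPKM in the control library. KRT8 had 1507 FPKM in the LPA library and 1208 FPKM in the control library, and KRT19 had 1268 FPKM in the LPA library and 989 FPKM in the control library. The summed level of the epithelial markers was 3763 FPKM in the LPA library and 2881 FPKM in the control library. Fibroblast, immune and endothelial markers summed to 4.34, 3.34 and 0.121 FPKM in the LPA library, against 5.80, 3.09 and 0.105 FPKM in the control library. Most of the fibroblast sum was COL1A1, with 4.28 FPKM in the LPA library and 5.75 FPKM in the control library. Most of the immune sum was CD68, with 2.85 FPKM in the LPA library and 2.64 FPKM in the control library. The part of these markers in the results was not tested. In bulk RNA, fewer cells of a kind and less RNA per cell cannot be told apart.

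The largest isoform difference among these genes lay at the start of CCNG1, on the plus strand of chromosome 5 (163437571 to 163445016, hg38). Its isoforms NM_004060 (2468 nt) and NM_199246 (2368 nt) share a start group in the table and differ in length by 100 nt. In the GENCODE 29 annotation of the same build, this length is a stretch at chr5:163437665-163437764 in the untranslated part ahead of the coding exons. NM_004060 keeps it inside an unbroken first exon and NM_199246 lacks it, and both have the same coding exons (885 nt), so they encode the same protein. The sequences around the ends of the stretch are shown because they mark where the isoforms part. They are from the GENCODE 29 transcripts, plus strand, with the outermost bases of the stretch, or in the joined form all bases after the join, in capitals.
Left end, chr5:163437655-163437674, in NM_004060: ctccacccagGAcagtcccc
Right end, chr5:163437755-163437774, in NM_004060: gcaggcccGGggagggtggt
Joined, in NM_199246: ctccacccagGGAGGGTGGT
The stretch begins with GA and ends with GG. Because bases repeat at its ends it can be placed in 3 ways with the same joined product, and 0 of the 3 begin with GT and end with AG, as most annotated introns do, or have the rarer known pairs of intron ends. Of its 100 bases, 66% are G or C.

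**Figure D1:**
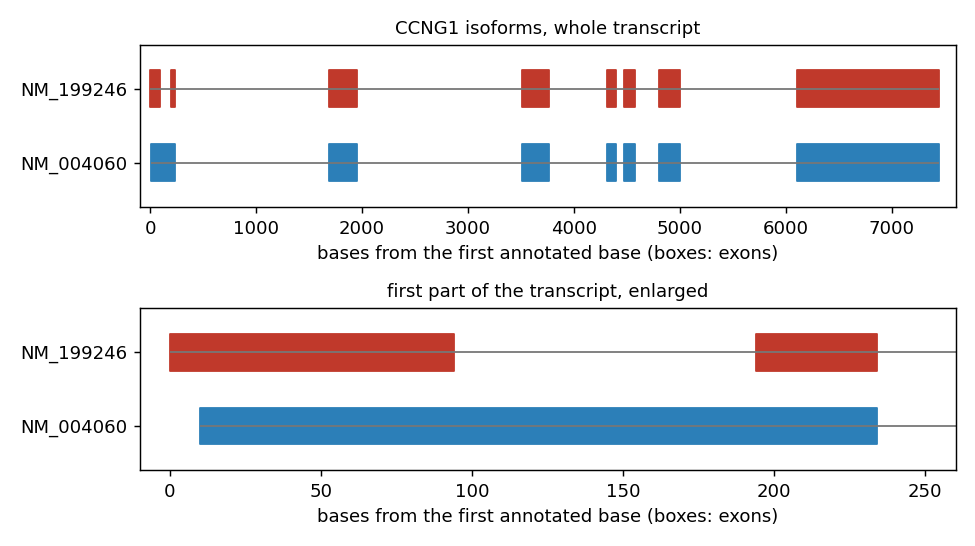
Exons of the CCNG1 isoforms NM_199246 and NM_004060 in GENCODE 29, as boxes against bases from the first annotated base, whole (top) and enlarged at the start (bottom). The isoforms differ in a stretch of 100 bases that NM_199246 lacks, ahead of the coding exons. Their annotated first and last bases also differ slightly.

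NM_004060 had 30.6 FPKM in the LPA library and 64.3 FPKM in the control library. The deposited bounds, whose level the table does not state, ran over 20.01 to 41.2 FPKM in the LPA library and over 46.2 to 82.4 FPKM in the control library, and did not overlap. NM_199246 went the other way, with 19.1 FPKM (bounds 10.6 to 27.6) in the LPA library and 4.43 FPKM (bounds 0 to 9.54) in the control library, again without overlap. By these estimates the isoform that keeps the stretch held 61.6% of CCNG1 FPKM in the LPA library and 93.6% in the control library. Its share was 32.0 percentage points lower in the LPA library. Whether NM_199246 is a true spliced product was not tested, since no reads were used here. How far the shift rests on the assignment of fragments was not tested either.

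Among the 12 isoforms of these genes with a mean of at least 1 FPKM, these were the 2 that were at least 1.5-fold apart with separate bounds, 1 lower and 1 higher in the LPA library. Both belong to CCNG1 and share all coding exons, so fragments were divided between them by estimate, and the 2 calls are not independent. Over all 16999 isoforms compared, 2.12% were lower and 2.48% higher by that rule. An isoform that was lower beside another that was higher occurred in 149 of 3667 genes with at least 2 compared isoforms (4.06%). The isoform that led in the control library lost at least as many points of share as that of CCNG1 in 291 of 3667 genes (7.94%). Among genes with a mean of at least 20 FPKM, a limit chosen after values had been seen, this was so in 25 of 1665 (1.5%). The cause of the shift in CCNG1 was not tested.

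**Figure D2:**
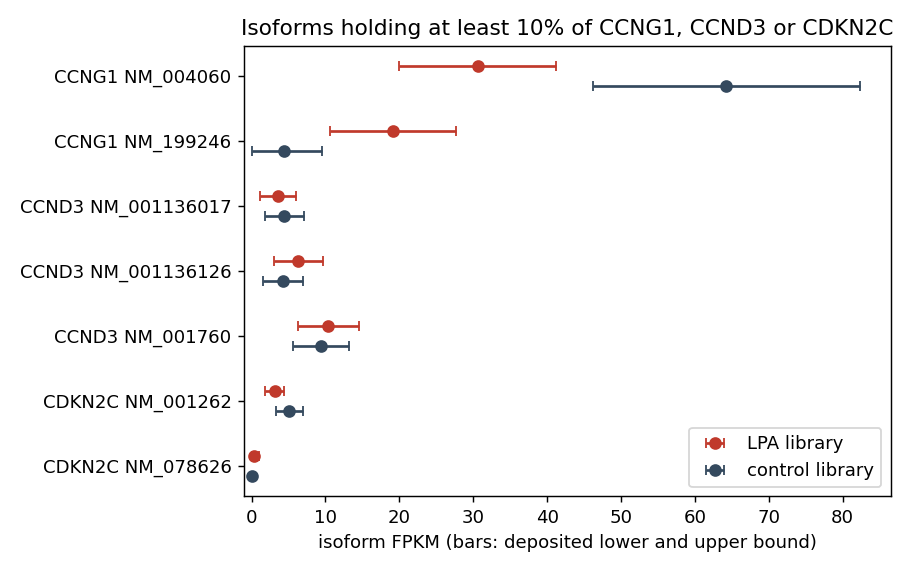
FPKM of each isoform that holds at least 10% of CCNG1, CCND3 or CDKN2C in a library, in the LPA library (red) and the control library (dark blue), with the deposited lower and upper bounds as bars. The bounds of the libraries are separate for both CCNG1 isoforms, in opposite directions, and overlap for all the CCND3 and CDKN2C isoforms shown.

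Summed over isoforms, CCNG1 had 49.7 FPKM in the LPA library and 68.7 FPKM in the control library, a ratio of 0.724. The approximate 95% interval of this ratio from counting error alone is 0.683 to 0.767. On the log2(FPKM + 1) scale the difference was -0.46, and genes of like level (within 2-fold of its mean FPKM) had a central 95% range of -0.47 to 0.53. CCNG1 was thus near the lower edge of that range and inside it, with 3.88% of the 11688 genes compared below it.

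CCNG2, on chromosome 4 (77157204 to 77170060), had 5.38 FPKM (bounds 3.79 to 6.97) in the LPA library and 8.98 FPKM (bounds 6.45 to 11.5) in the control library. The ratio was 0.600, with a counting interval of 0.535 to 0.672 from about 464 and 823 fragments. Its log2 ratio of -0.64 was outside the central 95% range of genes of like level, -0.53 to 0.45, and 1.01% of all genes were lower. The deposited bounds of the libraries overlapped. With LPA, 1 of the 9 measured genes (mean of at least 1 FPKM), CCNG2, was lower by 1.5-fold or more on that scale, and 0 of 9 were higher by as much. Over all 11688 genes with such a mean, 1.54% were lower and 1.45% higher by 1.5-fold or more. At a 2-fold limit 0 of 9 genes were past it on either side, against 0.205% of all genes lower and 0.351% higher. With a pseudocount of 5 FPKM in place of 1, the log2 ratio of CCNG2 was -0.43 and short of the 1.5-fold limit.

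**Figure D3:**
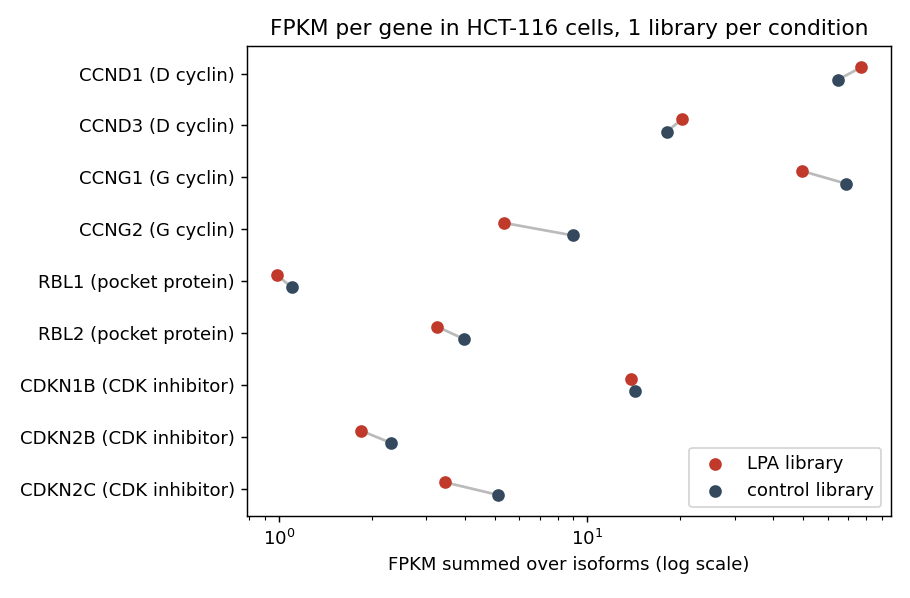
FPKM of the 9 measured genes in the LPA library (red) and the control library (dark blue) on a log axis, with a line joining the values of a gene. CCND1 and CCND3 are further right in the LPA library, and the other 7 genes are further left.

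The measured D cyclins, CCND1 and CCND3, lay on the other side. CCND1, on chromosome 11 (69641105 to 69654474), had 77.2 FPKM (bounds 56.3 to 98.1) in the LPA library and 64.8 FPKM (bounds 47.1 to 82.4) in the control library. The bounds overlapped, and the ratio of 1.19 had a counting interval of 1.15 to 1.24. Its log2 ratio of 0.25 was inside the range of genes of like level, -0.47 to 0.54, and 13.8% of all genes were higher.

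CCND3, on chromosome 6 (41934933 to 42048894), had 20.3 FPKM in the LPA library and 18.05 FPKM in the control library, a log2 ratio of 0.16. The ratio of 1.12 had a counting interval of 1.007 to 1.26, with a lower end close to 1. The log2 ratio was inside the range of genes of like level, -0.51 to 0.48. Of the 6 CCND3 isoforms 3 were above 0. NM_001760, whose first exon is at chr6:41941452-41941848 in GENCODE 29, had 10.4 FPKM in the LPA library and 9.35 FPKM in the control library. NM_001136017 and NM_001136126 begin further upstream, in exons at chr6:42048501-42048968 and chr6:42048501-42048894. They summed to 9.90 FPKM in the LPA library and 8.70 FPKM in the control library, so that each start gave a similar level in either library. NM_001136126, which lacks an exon of 216 nt, had 6.34 FPKM in the LPA library and 4.26 FPKM in the control library. NM_001136017, which has that exon, had 3.56 FPKM in the LPA library and 4.43 FPKM in the control library, and the bounds overlapped for each isoform.

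CCND2 was listed at 0 in both libraries, with upper bounds that are also 0, as for 17630 of the 27403 isoforms listed at 0 in both. This need not mean absence, and CCND2-AS1, which shares its locus, was listed at 0 as well. The D cyclins summed to 97.5 FPKM in the LPA library and 82.8 FPKM in the control library, and CCND1 made up 79.2% of that sum in the LPA library and 78.2% in the control library.

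Both pocket protein genes were low. RBL2, which binds E2F4 in resting cells, had 3.26 FPKM (bounds 1.95 to 4.57) in the LPA library and 3.99 FPKM (bounds 2.39 to 5.59) in the control library, a ratio of 0.818 with a counting interval of 0.694 to 0.964. The log2 ratio of -0.23 was inside the range of genes of like level. Its locus on chromosome 16 overlaps that of AKTIP (6.82 FPKM in the LPA library and 8.77 FPKM in the control library). The library kit does not mark strand, so fragments of overlapping genes cannot be told apart. RBL1, on chromosome 20 (36996351 to 37096000), had 0.983 FPKM in the LPA library and 1.10 FPKM in the control library, and the counting interval of the ratio, 0.673 to 1.19, included 1.

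Of the CDK inhibitors, CDKN2C was furthest apart. It had 3.46 FPKM in the LPA library and 5.13 FPKM in the control library, a ratio of 0.676 with a counting interval of 0.533 to 0.857. Its log2 ratio of -0.46 was inside the range of genes of like level, -0.53 to 0.47, and 3.97% of all genes were lower. The main isoform, NM_001262, had 3.11 FPKM in the LPA library and 5.13 FPKM in the control library, with overlapping bounds. NM_078626, from another start on chromosome 1, had 0.350 FPKM in the LPA library, about 7.03 fragments, and was listed at 0 in the control library.

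CDKN2B, a gene induced by TGF-beta in epithelial cells, had 1.84 FPKM in the LPA library and 2.31 FPKM in the control library, and the counting interval of the ratio (0.624 to 1.02) included 1. CDKN2B-AS1, which overlaps it, had 0.539 FPKM in the LPA library and 0.456 FPKM in the control library. CDKN1B, whose protein is set largely by degradation, had 13.8 FPKM (bounds 9.79 to 17.9) in the LPA library and 14.2 FPKM (bounds 10.1 to 18.4) in the control library. Its ratio of 0.972, with a counting interval of 0.866 to 1.09, was the closest to 1 of the 9 genes.

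**Figure D4:**
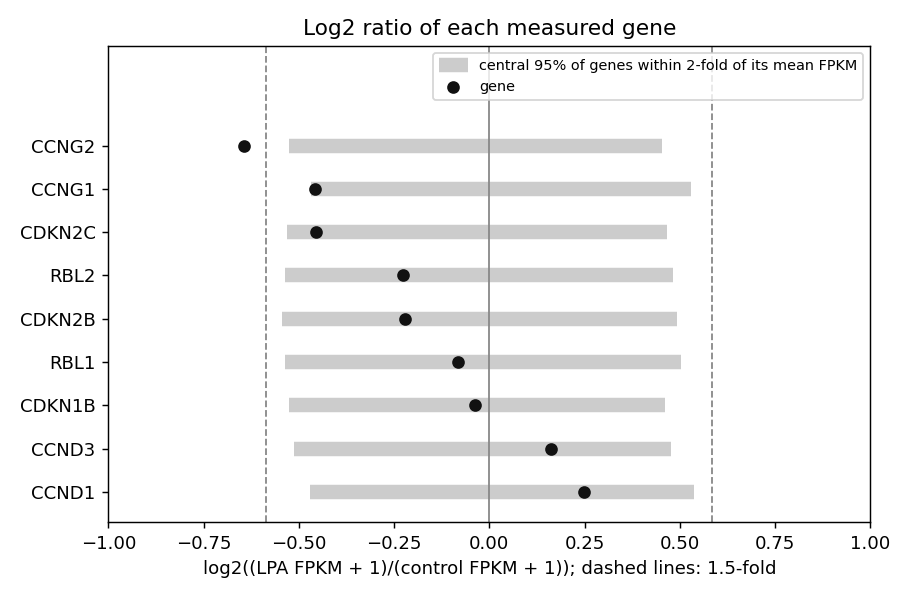
Log2 ratio of LPA over control of each measured gene (points), with the central 95% range of genes within 2-fold of its mean FPKM (grey bars) and the 1.5-fold limits (dashed lines). CCNG2 is outside its bar, and the other 8 genes are inside theirs.

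Across the 9 measured genes, 7 had a log2 ratio below 0 and the median was -0.22. Over all 11688 genes 49.8% were below 0 and the median was 0.0009. Each difference except that of CCNG2 was within the range of genes of like level. By summed FPKM, which is per length, CCND1 and CCNG1 were the most abundant in both libraries, and CCND3, CDKN1B, CCNG2, CDKN2C, RBL2, CDKN2B and RBL1 followed. The deposited bounds are per isoform, so the leading isoform stood for a gene with several when neighbours in this order were compared. Bounds of neighbours overlapped in both libraries for every pair of neighbours from CCNG2 down to RBL1. Such neighbours could not be ordered, whereas CCNG2 and RBL1 themselves had separate bounds in both libraries. The bounds of CDKN1B and of the leading CCND3 isoform, NM_001760, also overlapped in both libraries. That isoform held 51.2% of CCND3 FPKM in the LPA library and 51.8% in the control library. Bounds of the summed CCND3 isoforms were not used here, so the overlap does not settle the order of CCND3 and CDKN1B. CDKN1B and CCNG2 had separate bounds in the LPA library and overlapping ones in the control library. CCND1 and CCNG1 could not be ordered in the control library, with 64.8 FPKM for CCND1 and 68.7 FPKM for CCNG1. In the LPA library CCND1 had 77.2 FPKM and CCNG1 had 49.7 FPKM, and the bounds of CCND1 and of the leading CCNG1 isoform were separate, but bounds of the summed CCNG1 isoforms were not used here.

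Partners in the same pathway were read from 6 gene lists, of which 59 of 61 genes were measured. In these lists 26 genes lay above 0 on the log2 ratio and 33 lay below it, their median was -0.07, and 1 gene was at least 1.5-fold apart. This limit, here and in the lists below, is on the log2(FPKM + 1) scale; by FPKM alone E2F1, LIN9 and FBXW8 were past 1.5-fold as well. The 1 gene was E2F2, an activator of replication genes, with 3.90 FPKM in the LPA library and 2.16 FPKM in the control library (log2 ratio 0.63). E2F1, RB1, CCNE1, MNAT1 and SKP2 are named below for their roles, after their values had been seen; the other genes follow a rule on rank.

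In the list of RB1, E2F, DP and DREAM partners, DREAM being the complex in which RBL2 and E2F4 silence cell-cycle genes, 10 of 18 genes were above 0 and 8 below, with a median of 0.02. E2F1, another activator, had 14.2 FPKM in the LPA library and 9.31 FPKM in the control library. E2F4, the factor that RBL2 binds, had 62.7 FPKM in the LPA library and 47.5 FPKM in the control library. LIN9, a DREAM subunit, was lowest of this list, with 2.49 FPKM in the LPA library and 3.85 FPKM in the control library. The list thus reached to both sides, as RB1 shows, which had 3.79 FPKM in the LPA library and 5.30 FPKM in the control library. All 3 pocket protein genes, RB1, RBL1 and RBL2, had a log2 ratio below 0, as had 49.8% of all genes, and each was within 1.5-fold. For RBL1 the counting interval of the ratio included 1, so its direction was not resolved. MYBL2, which joins LIN proteins in cycling cells, had 30.4 FPKM in the LPA library and 24.6 FPKM in the control library. TFDP1, a dimer partner of E2F factors, had 46.4 FPKM in the LPA library and 45.4 FPKM in the control library. RBBP4, a histone-binding subunit of DREAM, had 13.6 FPKM in the LPA library and 16.0 FPKM in the control library.

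Of the G1/S cyclins and kinases 5 were above 0 and 5 below (median -0.01), and 0 of 10 were 1.5-fold apart. CDK4, the kinase partner of D cyclins, had 129 FPKM in the LPA library and 116 FPKM in the control library. CDC25A, which activates CDK2, was highest of this list by log2 ratio, with 4.67 FPKM in the LPA library and 3.39 FPKM in the control library. The E cyclins differed in direction. CCNE2 was lowest of the list, at 2.90 FPKM in the LPA library and 4.28 FPKM in the control library, while CCNE1 had 18.8 FPKM in the LPA library and 16.3 FPKM in the control library. CDK7 and MNAT1, which form a CDK-activating kinase with CCNH, had log2 ratios on either side of 0. CDK7 had 70.8 FPKM in the LPA library and 69.4 FPKM in the control library, and MNAT1 had 23.5 FPKM in the LPA library and 31.5 FPKM in the control library. CCNH itself had 26.6 FPKM in the LPA library and 32.9 FPKM in the control library. CDK2 had 30.2 FPKM in the LPA library and 33.0 FPKM in the control library.

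Other CDK inhibitors had a median of -0.18, with 2 of 5 above 0 and 3 below. CDKN2A, a neighbour of CDKN2B on chromosome 9, was lowest by log2 ratio, with 102 FPKM in the LPA library and 133 FPKM in the control library. CDKN2D, a further INK4 inhibitor, was highest, with 12.5 FPKM in the LPA library and 10.9 FPKM in the control library. Between them lay CDKN3 (34.9 FPKM in the LPA library, 41.5 FPKM in the control library) and CDKN1C (14.4 FPKM in the LPA library, 16.4 FPKM in the control library). CDKN1A, an inhibitor of the same class as CDKN1B, had 144 FPKM in the LPA library and 141 FPKM in the control library.

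Among partners and relatives of the G cyclins 7 of 9 were below 0, with a median of -0.09, and 0 of 9 were 1.5-fold apart. CCNI, a related cyclin, was lowest by log2 ratio, with 48.9 FPKM in the LPA library and 62.3 FPKM in the control library. Of the regulatory subunits of the phosphatase PP2A, to which G cyclins bind, PPP2R5C had 41.4 FPKM in the LPA library and 49.1 FPKM in the control library. PPP2R5A, another, had 19.4 FPKM in the LPA library and 22.6 FPKM in the control library. A further subunit, PPP2R5D, did not share their direction and had 27.6 FPKM in the LPA library and 27.3 FPKM in the control library. GAK, a kinase that binds G cyclins, had 23.0 FPKM in the LPA library and 24.3 FPKM in the control library.

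Of the FOXO factors and AKT kinases, which phosphorylate FOXO proteins, 4 of 5 were below 0 (median -0.07) and 0 of 5 were 1.5-fold apart. FOXO3 was highest by log2 ratio, with 4.91 FPKM in the LPA library and 4.30 FPKM in the control library. AKT1 was lowest, with 60.5 FPKM in the LPA library and 68.5 FPKM in the control library. AKT2 had 17.02 FPKM in the LPA library and 18.3 FPKM in the control library. The FOXO genes were all low in level, FOXO4 with 4.86 FPKM in the LPA library and 4.93 FPKM in the control library. FOXO1 had 1.84 FPKM in the LPA library and 1.98 FPKM in the control library.

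In the genes that turn over p27 and D cyclins 6 of 12 were above 0 (median -0.03) and 0 of 12 were 1.5-fold apart with 1 FPKM added. SKP2, the subunit that recognises p27, had 6.29 FPKM in the LPA library and 5.30 FPKM in the control library. Its cofactor CKS1B had 214 FPKM in the LPA library and 248 FPKM in the control library. SKP1, a core subunit of the ligase, was lowest by log2 ratio, with 147 FPKM in the LPA library and 173 FPKM in the control library. FBXW8, an F-box gene, was highest with 1.84 FPKM in the LPA library and 1.197 FPKM in the control library. RBX1, the RING subunit of the same ligases, had 110 FPKM in the LPA library and 120 FPKM in the control library. CUL1, their scaffold, had 27.01 FPKM in the LPA library and 29.1 FPKM in the control library. UBAC1, a subunit of another ligase of p27, had 37.0 FPKM in the LPA library and 31.5 FPKM in the control library.

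**Figure D5:**
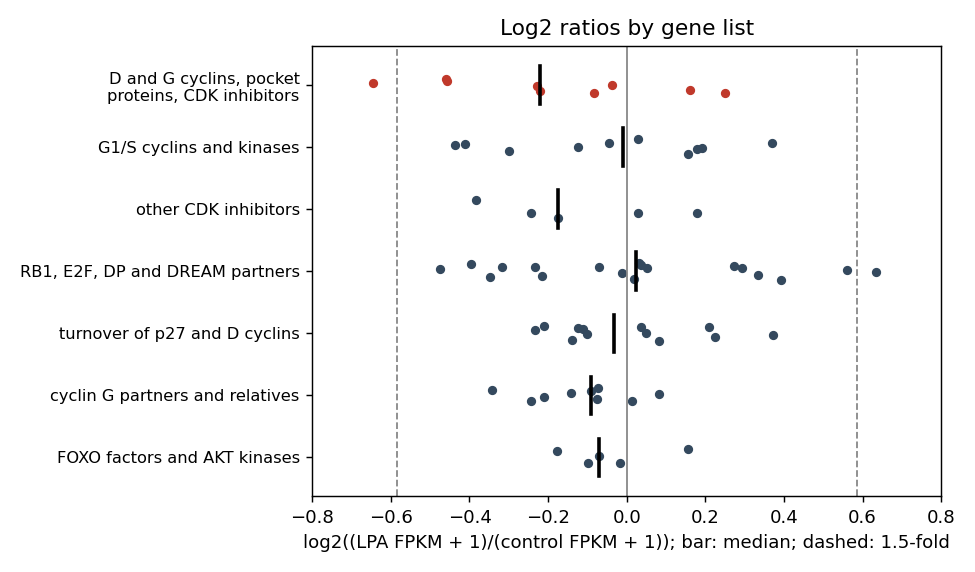
Log2 ratio of LPA over control of each measured gene (points, spread vertically for legibility) in the 9 genes described here and in the 6 related lists, with each median as a bar and the 1.5-fold limits dashed. CCNG2 is the 1 gene left of the lower limit and E2F2 the 1 gene right of the upper limit.

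Promoters, from 250 bases before to 50 after a start in RefSeq (GRCh38.p14), were found for 8 of the 10 genes, at 14 starts. None was at hand for CCND1 and CCND2, so the search does not cover these genes. They were searched on both strands for the E-box CACGTG, the E2F letters TTCCCGC, the E2F letters TTGGCGC, the E2F letters TTCGCGC, the forkhead letters TGTTTAC, the CHR letters TTTGAA, the CRE core TGACGT and the AP-1 letters TGACTCA. The motifs overlapped at none of these starts. The promoter of CCNG2 is shown because it was the gene furthest apart, with its E-box in capitals. That of RBL1 is shown because it is a known E2F target, with its E2F letters in capitals. For RBL1 a difference between the libraries was not resolved, as its counting interval included 1.
CCNG2, chr4:77156957-77157256, plus strand: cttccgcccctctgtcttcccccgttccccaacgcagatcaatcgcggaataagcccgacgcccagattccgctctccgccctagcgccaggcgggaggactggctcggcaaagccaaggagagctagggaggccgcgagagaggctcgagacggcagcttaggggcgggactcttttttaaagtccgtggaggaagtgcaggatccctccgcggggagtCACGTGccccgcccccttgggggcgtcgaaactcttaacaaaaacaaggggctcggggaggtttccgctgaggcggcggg
RBL1, chr20:37095948-37096247, minus strand: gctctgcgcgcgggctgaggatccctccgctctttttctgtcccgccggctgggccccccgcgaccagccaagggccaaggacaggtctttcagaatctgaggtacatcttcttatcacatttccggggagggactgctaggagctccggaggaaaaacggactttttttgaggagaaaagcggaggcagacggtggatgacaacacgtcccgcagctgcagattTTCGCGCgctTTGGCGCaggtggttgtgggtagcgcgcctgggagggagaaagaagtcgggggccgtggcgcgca
The E-box is in 7.26% and any of the E2F letters in 11.03% of all 35116 promoters of this length. CDKN2C also holds both, at different starts, together with the CRE core (7.98% of promoters). The forkhead letters (3.42%) were found at a start of CCND3, the CHR letters (15.2%) at a start of RBL2, and the AP-1 letters (4.95%) at 0 of the 14 starts. A match is a description of the sequence and not a site of binding.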

How the data were processed

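Poly-A RNA of HCT-116 cells was sequenced, 1 library per condition, and samples were grouped by their titles. Per the submitters' processing notes, TopHat2 2.0.12, Cuffdiff 2.2.0 and bcl2fastq 2.16.0.10 were used with the hg38 build, and also Cufflinks, with no version. The authors deposited FPKM with lower and upper bounds per isoform, per the file headers; how the libraries were scaled is not given in the sources used here. Transcript length, another deposited value, is in nt.

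From these, FPKM were summed per symbol, leaving out 16 isoforms without an estimate in the LPA library (none of these genes). Log2 ratios used a pseudocount of 1 FPKM, among genes with a mean of at least 1 FPKM. Fragments were estimated from the lowest products of FPKM and length among isoforms over 2000 nt, and intervals cover counting error only. The functions were tested on simulated data, with genes of a mean of at least 5 FPKM, a smaller pseudocount and each isoform drawn separately. That test did not cover the lower genes or the division of fragments between isoforms. Python 3.11.15 with pandas 2.3.3 and numpy 2.4.6 was used. GENCODE 29 overlapped the deposited loci of all 10 genes. The 10 genes and the lists were chosen with earlier results of these data known. Within lists, the genes with the highest and lowest log2 ratio, those at least 1.5-fold apart and up to 4 of the most abundant others were named, and a few more for their roles; 1 listed gene is not reported here by name. Likeness between genes was not ranked, since with 2 libraries a pattern is 1 ratio. Alternatives covered the pseudocount, the filter, centring, the isoforms used and the fold limit.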

Additional observations from a re-analysis of the deposited data

How the results depend on the processing

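No paired analysis was possible because the groups share 1 replicate number and hold 1 library each, and for the same reason no library could be left out. With a pseudocount of 0.1, 653 genes were at least 1.5-fold apart in place of 349, and 3 pathway genes in place of 1. With a pseudocount of 5 these were 111 and 0, and 0 of the 9 genes in place of 1. At a mean of at least 5 FPKM they were 209 of 7762 genes and 0 of 45 pathway genes, E2F2 being below this mean. Of the 5 genes described here that remained, CCNG2 was still at least 1.5-fold lower, and their median was -0.038. With the leading isoform standing for its gene, the counts of all genes and of pathway genes were 932 and 3. Then 2 of the 9 genes, CCNG1 (log2 ratio -1.05) and CCNG2, were at least 1.5-fold lower. At a 2-fold limit those counts were 65 and 0, and 0 of the 9 genes. The number of isoforms of these genes at least 1.5-fold apart with separate bounds was 2, both of CCNG1, and without the condition on bounds it was 3, with that of CCNG2 added. Centring on the reference genes shifted log2 ratios by 0.05 and gave 132 higher and 253 lower genes, against 169 and 180 without centring. Of 77 log2 ratios of single genes under the alternatives, 37 were identical to the reported value, because the alternative does not act on that gene. Of the other 40, 38 moved by less than their counting interval, and the exceptions were CCNG1 with the leading isoform and CCNG2 with a pseudocount of 5. Keeping isoforms without an estimate at 0, chosen after seeing the data, gave 352 genes. At this depth RBL1, CDKN2B and CDKN2C rest on about 88 to 179 fragments each.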

Other observations

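Among 23 measured cyclin genes, a set drawn up after values had been seen, CCNG2 had the lowest log2 ratio and CCNG1 the third lowest, with CCNT2 between them (3.35 FPKM in the LPA library and 5.28 FPKM in the control library). CCNT2 encodes a partner of the elongation kinase CDK9. CCNO was highest, with 16.1 FPKM in the LPA library and 12.8 FPKM in the control library, followed by CCND1. The mitotic cyclin gene CCNB1 had 94.2 FPKM in the LPA library and 94.1 FPKM in the control library. Of the 19 cyclin genes other than CCND1, CCND3, CCNG1 and CCNG2, 8 were above 0 and 11 below. On the log2(FPKM + 1) scale 0 of them were 1.5-fold apart, although CCNT2 was past this limit by FPKM alone.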
